A study of Mus musculus with 16 samples.

Results

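Mitochondrial ribosomal protein genes are the 64 genes whose platform symbol begins with Mrpl or Mrps followed by a digit; no other selection was made. They were read by 79 of the 20355 probes on the array and make up 0.645% of its 9930 named genes. All 79 probes passed the filter on missing values, and 63 genes had a value in all 4 mice; Mrpl3 had 3 because its probe lacked 1 dye orientation in mouse 2. Under the names given to structures of the mammalian mitochondrial ribosome, 42 of the genes encode proteins of the large subunit, including Mrps30 and Mrps18a, and 22 encode proteins of the small subunit. Of the 64, 39 were counted as having a bacterial homologue and 25 as specific to mitochondria.

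The study compared kidney RNA of 4 MFP2-/- males, 15 weeks old and each hybridised singly, on 16 two-channel cDNA arrays with RNA pooled from 5 male wild-type mice of the same age, labelled wt (Swiss strain SWR/Ola Hsd). MFP2 is peroxisomal multifunctional protein 2, encoded by Hsd17b4, an enzyme of peroxisomal beta-oxidation. The labels give no background strain for the mutants, so genotype and strain cannot be told apart, and the pool is 1 control sample whose animals were not measured separately. Each mouse had 4 arrays, 2 with the mutant RNA in Cy5 and 2 with it in Cy3, which are technical repeats of 1 RNA, so n is 4 mice. For mouse 1 the titles and the source names carry different animal numbers, and its 4 arrays were grouped by the mouse ID that they share.

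Mitochondrial ribosomes translate the few proteins encoded by mitochondrial DNA, all of them subunits of the oxidative phosphorylation complexes. Their RNA comes from mitochondrial DNA, whereas every one of their proteins is encoded in the nucleus, made in the cytosol and imported. Kidney, its proximal tubule included, is rich in mitochondria because reabsorption is driven by respiration.

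The values are log2 ratios, read here as mutant over pool, with each array centred on its median. That direction and the log2 base were inferred. In the labels every array has the mutant as channel 1, and spots that share 1 extreme value are positive where the mutant is in Cy5 and negative where it is in Cy3. A positive value below therefore means a higher ratio in the mutant only if that inference holds. Deposited medians lay between -0.149 and 0.098. Between arrays of 2 mice hybridised in 1 orientation, the Pearson correlation across probes had a median of 0.142 and a minimum of 0.00827. The 2 probes of Hsd17b4 disagreed in sign and so could not check the genotype. Probe 4590 had -1.69, -1.50, -0.10 and -0.34 in mice 1 to 4, and probe 1446 had 0.02, 0.83, 0.34 and 0.52. Averaged, Hsd17b4 had -0.24 ± 0.45 (SD, n = 4; limma adjusted p 0.655). Ratios carry no level, so levels were not compared between genes, and the tissue was not checked against its markers. In a whole kidney, fewer cells of a type and less RNA per cell cannot be told apart. With 4 mice and 16 arrays, their number limits the precision.

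The first comparison asked whether these genes differed between the mice labelled MFP2-/- and the pool. No mitochondrial ribosomal protein gene passed the test. Limma with Benjamini-Hochberg adjustment over 16140 rows called 0 of the 64 at 0.05, where 0% of the array was called, and the smallest adjusted p among the 64 was 0.548. An unmoderated one-sample test also called 0. Without adjustment, 4 of 64 members (6.25%) had a p under 0.05, against 9.04% of the array. These were Mrpl15, Mrps15, Mrps23 and Mrpl53, all with a mean above 0, a direction in which 5.83% of the array passed. The log2 ratios were small. The means ran from -0.18 for Mrps9 to 0.62 for Mrps15, 60 of 64 lay within 0.2 of 0, and 1 was above 0.5. The 95% limma interval of the mean lay within 0.5 of 0 for 58 genes and within 0.25 for 30, and its width had a median of 0.36. It held 0 for 60.

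**Figure D1:**
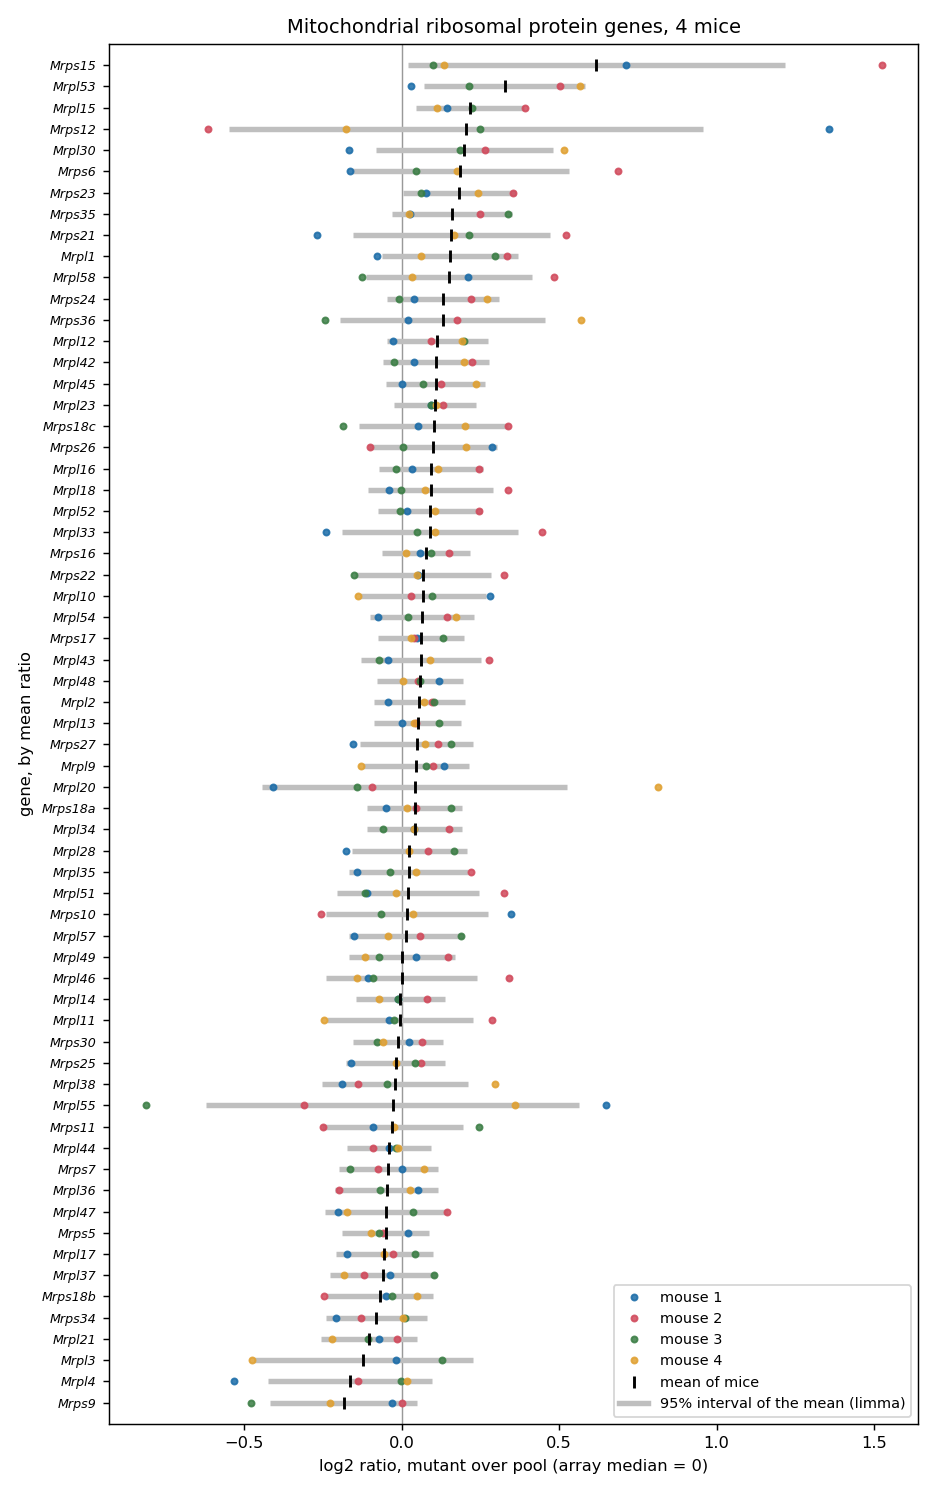
Log2 ratio of mutant over pool (x axis, array median at 0) for each of the 64 mitochondrial ribosomal protein genes (y axis, ordered by mean). Coloured points are the 4 mice, black ticks their mean and grey bars the 95% limma interval; 60 of the bars hold 0, and the red points of mouse 2 are the highest for 29 genes.

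The middle of the distribution lay slightly above the array's. The median over the 64 means was 0.049, beside 0.000 over all rows, and 43 of 64 (67.2%) had a mean above 0, beside 50.1% of the array. Above 0 in all 4 mice were 10 of 63 genes (15.9%), beside 10% of the array (1586 of 15856 rows), and below 0 in all 4 were 3 of 63 (4.76%), beside 9.42%. The 10 were Mrpl13, Mrpl15, Mrpl23, Mrpl48, Mrpl53, Mrps15, Mrps16, Mrps17, Mrps23 and Mrps35. Mrpl21, Mrpl44 and Mrps9 were the 3 below 0. These signs are of values averaged over probes and arrays, and single probes did not all share them. Mrpl48 had -0.27 in mouse 3 on probe 7819, and Mrps17 had -0.02 in mouse 2 on probe 1722. Mrpl21 had 0.095 in mouse 1 on probe 6718. Mrpl13 was only 0.0018 in mouse 1. Averaged over mice, Mrpl13, Mrpl53, Mrps16, Mrps17 and Mrps35 had opposite signs in the dye orientations. So had Mrpl44 of the 3 below 0. For mice 1 to 4 the median over the 64 genes was -0.02, 0.12, 0.02 and 0.04, with 29, 45, 34 and 44 genes above 0. The spread of these medians was 0.056 (SD, n = 4), wider than the median over genes of 0.049. Without mouse 2 the median was 0.026 with 40 genes above 0, and on the first repeats alone it was 0.032. Read as Cy5 over Cy3 instead, it was 0.0045 with 33 genes above 0.

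The spread of the members was close to that of the array. The median SD between mice was 0.14 for the members and 0.15 over all rows, and the median SD between repeats of 1 mouse in 1 orientation was 0.22 and 0.26. The median absolute mean was 0.065 for the members and 0.076 over all rows.

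Mouse 2 had the highest value of the 4 for 29 of 63 members (46.0%), where it was highest for 31.0% of the array, and mouse 1 the lowest for 25 (39.7%), where the array had 24.7%. Both shares rest on the inferred direction. Read as Cy5 over Cy3, mouse 2 was highest for 18 of 63 members (28.6%), beside 29.0% of the array, and mouse 1 lowest for 13 (20.6%), beside 24.7%. The 4 arrays of mouse 2 had member medians of 0.04, 0.15, 0.17 and 0.11. These arrays also had fewer values than the others, 19737 to 19816 against 19939 or more, and more spots at the extreme value, 55 to 71 against 12 to 35. Proximal tubule markers stood in the same order of mice. Of the 18 markers listed, 14 were measured and 12 were above 0, with a median of 0.17 and mouse medians of -0.04, 0.32, 0.10 and 0.26. Fibroblast markers, 5 of 5 measured, had that order too, with 2 above 0, a median of -0.14 and mouse medians of -0.18, -0.02, -0.10 and -0.09. Of the other lists, the median was above 0 for distal and connecting tubule (0.10, 4 of 4 genes above 0), endothelium (0.09, 4 of 6) and the 1 podocyte gene measured (0.23). It was below 0 for thick limb (-0.16, 1 of 4 above 0), collecting duct (-0.04, 1 of 3), leukocytes (-0.04, 0 of 4) and erythroid cells (-0.21, 0 of 2). The thick limb count includes Kcnj3 (-0.16), which a lookup of synonyms gave for the listed Kcnj1, so 1 of its 4 genes was not a listed marker. Slc12a1 (0.56) was the 1 thick limb gene above 0, and Aqp2 (0.46) the 1 of collecting duct. The part of these cell types in the members' values was not tested.

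Cytosolic ribosomal proteins and the nuclear subunits of oxidative phosphorylation were set beside the members on the same arrays, as a description with no test of the difference. The 61 cytosolic ribosomal protein genes had a median log2 ratio of 0.19, with 56 above 0 and mouse medians of 0.07, 0.43, 0.06 and 0.23. The 72 oxidative phosphorylation genes had 0.15, with 65 above 0 and mouse medians of -0.03, 0.40, 0.07 and 0.17. In mouse 2 both lists had a median over 3 times the members' 0.12. Limma called 0 genes of either list against 0 after adjustment, with 22 (36.1%) and 10 (13.9%) at an unadjusted p under 0.05, beside the array's 9.04%.

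**Figure D2:**
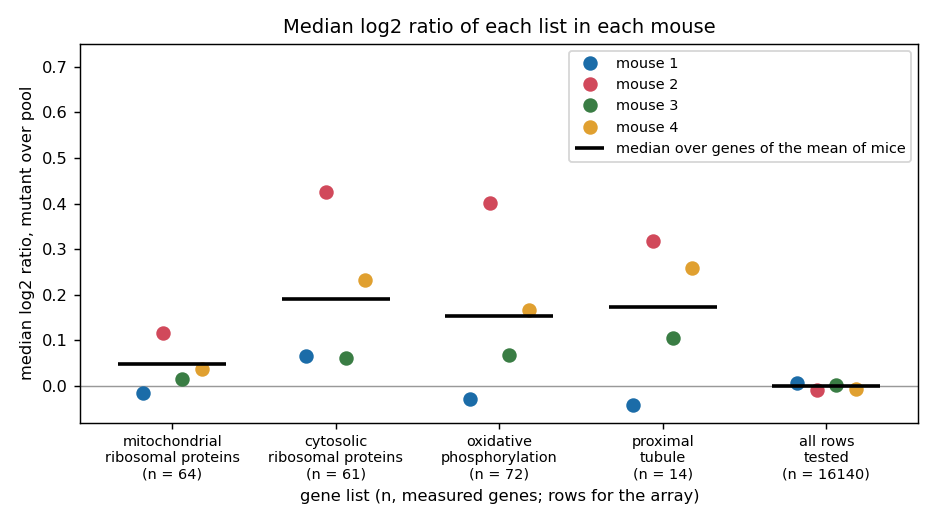
Median log2 ratio of mutant over pool (y axis) of each gene list (x axis) in each of the 4 mice (coloured points), with the median over genes of the mean of mice as a black line. Mouse 2 is highest in the 4 gene lists. It lies at 0.12 for mitochondrial ribosomal proteins and 0.43 and 0.40 for cytosolic ribosomal proteins and oxidative phosphorylation. All rows tested lie near 0 because each array was centred on its median.

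The large subunit holds the peptidyl transferase centre, the exit tunnel and the stalks that receive factors and tRNA. Its 42 genes had a median log2 ratio of 0.041, with 28 above 0 and mouse medians of -0.04, 0.13, 0.01 and 0.04. Of these, 25 were counted as having a bacterial homologue, with 17 above 0 and a median of 0.041. The 17 specific to mitochondria had 11 above 0 and a median of 0.019.

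Mrpl15, a homologue of a bacterial large-subunit core protein, read 0.14, 0.39, 0.22 and 0.11 in mice 1 to 4 (log2 ratio). All 4 were above 0 and both orientations were as well, at 0.17 on Cy5 arrays, those with the mutant in Cy5, and 0.26 on Cy3 arrays. The mean was 0.22 ± 0.13 (SD, n = 4), with a limma p of 0.021 and an adjusted p of 0.548. Mrpl23, which lies at the exit of the peptide tunnel, had 0.09, 0.13, 0.09 and 0.11, the narrowest spread between mice of all members with 4 values (SD 0.019). Its arrays were less close, with a repeat SD of 0.19, and its adjusted p was 0.585. Mrpl1, of the stalk near the tRNA exit site, had -0.08, 0.34, 0.30 and 0.06. Mrpl30 had -0.17, 0.26, 0.19 and 0.52, with -0.06 on Cy5 arrays and 0.46 on Cy3 arrays. Its value in mouse 4 leaned on 1 Cy3 array at 1.82, beside -0.15, 0.02 and 0.38 on the other arrays of that mouse. Mrpl1 and Mrpl30 were both below 0 in mouse 1 and above it in the other mice.

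Mrpl10 and Mrpl11 encode proteins at the base of the stalk that binds translation factors. Mrpl11 had -0.04, 0.29, -0.02 and -0.25 in mice 1 to 4 and Mrpl10 had 0.28, 0.03, 0.10 and -0.14. On these values mouse 4 was the lowest in both, and mouse 2 the highest only in Mrpl11. The 2 probes averaged for Mrpl10 ordered the mice differently. Probe 545 had 0.13, 0.16, -0.03 and -0.30 in mice 1 to 4, and probe 2575 had 0.43, -0.10, 0.22 and 0.02. Mrpl12, the flexible stalk protein, had -0.03, 0.09, 0.20 and 0.19.

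At the low end, Mrpl4, whose bacterial homologue lines the exit tunnel, had -0.53, -0.14, 0.00 and 0.02. Its mean of -0.17 ± 0.26 (SD, n = 4) leaned on 1 spot, since probe 18896 read -4.13 on 1 Cy3 array of mouse 1 and between -0.39 and 0.47 on its 15 other arrays. Mrpl21 had -0.07, -0.01, -0.11 and -0.22, with probe means of -0.11 and -0.09. Mrpl34 had 0.04, 0.15, -0.06 and 0.04. Mrpl3 had -0.02, 0.13 and -0.48 in mice 1, 3 and 4. None of these adjusted p-values was under 0.6.

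Among the large-subunit proteins specific to mitochondria, Mrpl53 had the smallest p of the 64 genes. Its mouse values were 0.03, 0.50, 0.21 and 0.57, a mean of 0.33 ± 0.25 (SD, n = 4) with a limma p of 0.0205 and an adjusted p of 0.548. That mean is the midpoint of far larger values of opposite sign. All 8 Cy5 arrays lay between -3.15 and -0.995, and all 7 Cy3 arrays with a value lay between 1.52 and 3.02. The dye term, which is the Cy5 minus the Cy3 orientation, was -3.90 ± 0.31 (SE), with a limma adjusted p of 6.93e-05. On Cy3 arrays alone Mrpl53 was called, with a ratio of 2.26 and an adjusted p of 0.0383. Read as Cy5 over Cy3 it was called at -1.93, with an adjusted p of 0.0377. Mrpl55 had the second largest dye term, -1.95 ± 0.45 (SE), and values of 0.65, -0.31, -0.81 and 0.36 in mice 1 to 4, from 14 arrays. Mrpl37 had -0.04, -0.12, 0.10 and -0.18, and Mrpl48 had 0.12, 0.05, 0.06 and 0.01. Mrpl49 had 0.05, 0.15, -0.07 and -0.12. Mrpl58, a peptidyl-tRNA hydrolase built into the ribosome, had 0.21, 0.49, -0.13 and 0.03. Mrpl45, which lies near the tunnel exit at the inner membrane, had 0.00, 0.13, 0.07 and 0.24. The remaining mitochondrion-specific genes had means from -0.04 for Mrpl44 to 0.11 for Mrpl42. They were Mrpl38, Mrpl42, Mrpl43, Mrpl44, Mrpl46, Mrpl51, Mrpl52, Mrpl54, Mrpl57 and Mrps30.

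Large-subunit members with a bacterial homologue that are not described elsewhere were Mrpl2, Mrpl9, Mrpl14, Mrpl16, Mrpl18, Mrpl20, Mrpl28, Mrpl35, Mrpl36 and Mrpl47. Their means lay between -0.05 for Mrpl47 and 0.09 for Mrpl16. Mrpl20 had a wide spread, with -0.41, -0.09, -0.14 and 0.81 in mice 1 to 4 and a repeat SD of 1.37.

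The small subunit binds messenger RNA and decodes it. Its 22 genes had a median log2 ratio of 0.073, with 15 above 0 and mouse medians of 0.02, 0.09, 0.03 and 0.05. Of these, 14 had a bacterial homologue, with 9 above 0 and a median of 0.070. The 8 specific to mitochondria had 6 above 0 and a median of 0.083.

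Mrps15, a homologue of a bacterial protein that binds ribosomal RNA early in assembly, had the highest mean of the members. Its values were 0.71, 1.52, 0.10 and 0.13, with the highest in mouse 2. That highest value leaned on 1 Cy5 array at 3.79, beside 0.47, 0.84 and 0.999 on the other arrays of mouse 2. The mean was 0.62 ± 0.67 (SD, n = 4), with a limma p of 0.045 and an adjusted p of 0.548. Its arrays spread widely, from -1.04 to 3.79 on Cy5 arrays and from -0.01 to 1.73 on Cy3 arrays. Mrps12, a homologue of a protein of the decoding centre, spread further, with 1.36, -0.61, 0.25 and -0.18 and an SD of 0.85, the widest of the 64. It had 13 arrays with a value. Its mean of 0.20 had a 95% limma interval of -0.55 to 0.96.

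Mrps23 and Mrps35, both specific to mitochondria, were above 0 in every mouse. Mrps23 had 0.08, 0.35, 0.06 and 0.24, a mean of 0.18 ± 0.14 (SD, n = 4) with a limma p of 0.0471 and an adjusted p of 0.548. Its 2 probes had means of 0.16 and 0.20. Mrps35 had 0.03, 0.25, 0.34 and 0.02, with 0.32 on Cy5 arrays and -0.01 on Cy3 arrays, and its dye term was called. Mrps24 had 0.04, 0.22, -0.01 and 0.27, but -0.07 on Cy5 arrays and 0.33 on Cy3 arrays.

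Mrps9, whose bacterial homologue reaches the tRNA sites, had the lowest mean of the 64. Its values were -0.03, 0.00, -0.48 and -0.23, a mean of -0.18 ± 0.22 (SD, n = 4) with an adjusted p of 0.588. The value of mouse 3 leaned on 1 Cy5 array at -1.65, beside -0.32, -0.23 and 0.28 on the other arrays of that mouse. Mrps34, specific to mitochondria, had -0.21, -0.13, 0.01 and 0.00. Neither gene was separated from 0 by more than the spread between mice.

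Mrps17 had 0.05, 0.04, 0.13 and 0.03 and Mrps25 had -0.16, 0.06, 0.04 and -0.02. Mrps10 had 0.35, -0.26, -0.07 and 0.04. Of the 3 Mrps18 paralogues, Mrps18b had -0.05, -0.25, -0.03 and 0.05 and Mrps18c had 0.05, 0.34, -0.19 and 0.20. Mrps18a, of the large subunit, had -0.05, 0.04, 0.16 and 0.02. On these values the paralogues had no shared order of mice. The value of Mrps18b in mouse 2 leaned on 1 Cy3 array, where probe 2096 read -3.515. That probe read 0.03 on a Cy5 array and 1.75 on the other Cy3 array of that mouse. Mrps36, since identified as a subunit of the 2-oxoglutarate dehydrogenase complex, had 0.02, 0.17, -0.25 and 0.57, and without it the members' median was 0.047. Its value in mouse 4 leaned on 1 Cy3 array at 1.76, beside 0.39, 0.14 and -0.015 on the other arrays of that mouse. The others, Mrps5, Mrps7, Mrps11, Mrps16, Mrps22, Mrps26 and Mrps27, had means between -0.05 and 0.10.

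Each mouse having 4 arrays, the mice could also be compared with each other beyond the spread between arrays. Mrps6, a small-subunit protein with a bacterial homologue, was the only member with a called difference. An F-test in limma, fitted to the 16 arrays with mouse and dye as terms, called 1 of 63 members (1.59%), where it called 0.189% of 15856 rows. Its error is that between arrays of the same RNA, so it compares these RNA samples. The mouse values of Mrps6 were -0.17, 0.69, 0.04 and 0.18, and its Benjamini-Hochberg adjusted F-test p was 0.0191. Averaged over its 2 probes, the 4 arrays of mouse 2 lay between 0.52 and 0.80, above all 12 others, which lay between -0.30 and 0.32. Both probes put mouse 2 highest. Probe 579 had -0.39, 0.71, -0.06 and 0.10, and probe 12285 had 0.06, 0.67, 0.15 and 0.25. Taken singly, probe 579 had an adjusted p of 0.0138 and probe 12285 one of 0.187. Against the pool Mrps6 averaged 0.19 ± 0.36 (SD, n = 4; limma adjusted p 0.672).

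The call for Mrps6 rested on several choices. The F-test adjusted p was 0.0544 without median centring, 0.208 without mouse 1, 0.587 without mouse 2, 0.0738 without mouse 3 and 0.046 without mouse 4. Read as Cy5 over Cy3 it was 0.983.

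In RefSeq, Mrps6 overlaps Slc5a3, the sodium/myo-inositol cotransporter that brings an osmolyte into cells of the kidney medulla. The first bases of both genes lie 14 bases apart on the same strand of chromosome 16, so the window from 250 bases before to 50 bases after the start of Mrps6 is nearly that of Slc5a3. It is printed because the 1 called member shares its start region with another gene. It lies at chr16:92058086-92058385 on the plus strand of GRCm38.p6, and the 15 capitals run from the first base of Slc5a3 to the first base of Mrps6.
Mrps6: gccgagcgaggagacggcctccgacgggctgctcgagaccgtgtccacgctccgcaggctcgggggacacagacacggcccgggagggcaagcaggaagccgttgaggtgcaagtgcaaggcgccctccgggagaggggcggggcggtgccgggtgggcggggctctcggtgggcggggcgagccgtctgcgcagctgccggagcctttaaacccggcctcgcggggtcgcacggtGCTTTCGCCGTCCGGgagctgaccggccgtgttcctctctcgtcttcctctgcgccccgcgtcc
No probe on the array carried Slc5a3 as its single symbol, so no value for that gene could be set beside Mrps6. Which stretch of the transcript either Mrps6 probe covers was not known from the sources used, so signal from a shared region cannot be told apart from signal of Mrps6 alone. Of the 64 members, 16 overlap another protein-coding gene in RefSeq, 11 of them one with a probe on the array.

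Next in order between mice, none of them called, came Mrpl33, Mrps21, Mrpl11, Mrps12 and Mrps18c. Mrpl33, a small large-subunit protein with a bacterial homologue, had -0.24, 0.45, 0.05 and 0.10, with an F-test adjusted p of 0.0901. Its 4 arrays of mouse 1 were all below 0 and its 4 of mouse 2 all above. Mrps21 had -0.27, 0.52, 0.21 and 0.17, with an adjusted p of 0.171, and lay at 0.45 on Cy5 arrays and -0.13 on Cy3 arrays. The adjusted p was 0.215 for Mrpl11, 0.218 for Mrps12 and 0.263 for Mrps18c. In Mrps6, Mrpl33 and Mrps21 mouse 1 was the lowest and mouse 2 the highest, whereas Mrps12 had the reverse order.

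**Figure D3:**
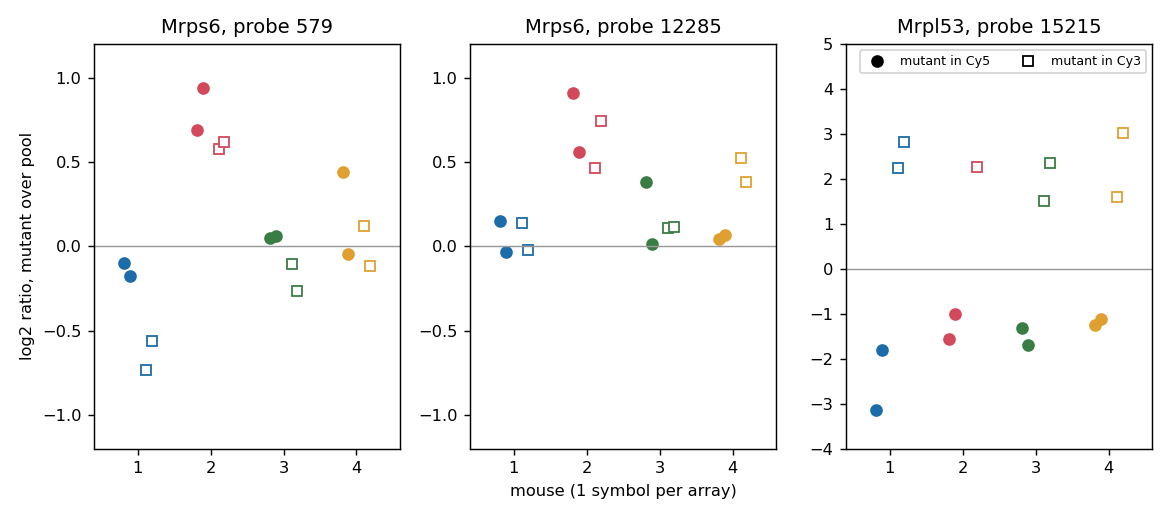
Log2 ratio of mutant over pool (y axis) on every array, by mouse (x axis), for both probes of Mrps6 and the probe of Mrpl53; filled circles are arrays with the mutant in Cy5 and open squares those with it in Cy3. Mouse 2 has the highest mean for both Mrps6 probes in either orientation, whereas Mrpl53 splits by dye, at -0.995 or below in Cy5 and 1.52 or above in Cy3.

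The 2 dye orientations were compared next. The dye term was called by limma for 7 of 63 members (11.1%), beside 8.40% of the array. Mrps21, Mrps35 and Mrps17 were higher with the mutant in Cy5. Mrpl53, Mrpl55, Mrps10 and Mrps7 were higher with it in Cy3. The terms ran from -3.90 for Mrpl53 to 0.58 for Mrps21. Of the 64 genes, 24 were above 0 in both orientations, 8 were below 0 in both, and 32 had opposite signs in them, as did 59.8% of all rows. The member medians were 0.04 in each orientation. Mrpl13 had a larger term, -1.34, than any called member but Mrpl53 and Mrpl55, with no call, and its repeats differed most of all members (repeat SD 1.50). In mouse 2 its first repeats read -3.98 on the Cy5 array and 4.67 on the Cy3 array, while the mouse values were 0.00, 0.05, 0.12 and 0.04.

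**Figure D4:**
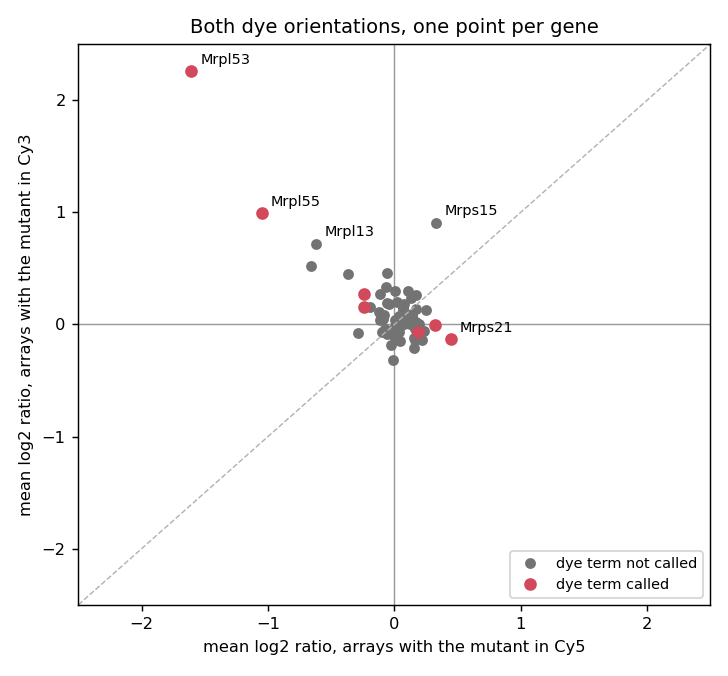
Mean log2 ratio of mutant over pool with the mutant in Cy5 (x axis) and with the mutant in Cy3 (y axis), 1 point per gene for the 64 mitochondrial ribosomal protein genes. Most points lie around 0; Mrpl53, Mrpl55 and Mrpl13 lie far to the upper left, and the 7 genes with a called dye term are red.

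The 14 members read by more than 1 probe give a check within genes. Probe means had the same sign in 9 genes and opposite signs in 5, and the gap between them ran from 0.02 to 0.27 with a median of 0.096. Mrps10 had the widest gap, with 0.15 for probe 1611 and -0.12 for probe 15580, which read -0.82 in mouse 2 where the other probe read 0.31. Mrpl10 had 0.14 and -0.01, Mrpl49 0.07 and -0.07, and Mrps25 0.01 and -0.05. Mrpl17, with 3 probes, had 0.03, -0.06 and -0.13.

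Other genes of mitochondrial translation were taken from lists, and limma called 0 of them after Benjamini-Hochberg adjustment; Ybey, Hsd17b10 and Slirp had an unadjusted p under 0.05. Mitoribosomal proteins under other names had 3 of 4 means above 0. They were Dap3 at 0.12 ± 0.11, Ptcd3 at 0.13 ± 0.21, Chchd1 at 0.04 ± 0.13 and Gadd45gip1 at -0.12 ± 0.21 (SD, n = 4 each). Ptcd3, like Mrps6, had its lowest value in mouse 1 (-0.08) and its highest in mouse 2 (0.42). No other gene of this list had both. Gadd45gip1 was lowest in mouse 2 (-0.39), Dap3 highest in mouse 3 (0.23) and Chchd1 lowest in mouse 4 (-0.08).

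Of 13 translation factors, 10 were measured, with 6 above 0 and a median of 0.052. Gfm1, the elongation factor that moves the ribosome along the message, had 0.07, 0.37, -0.03 and 0.41, at -0.22 on Cy5 arrays and 0.62 on Cy3 arrays. Mtrf1l, a release factor, had 0.19 ± 0.21 and Taco1, an activator of Cox1 translation, had -0.14 ± 0.20 (SD, n = 4 each). Of 22 aminoacyl-tRNA synthetase genes and related enzymes, 11 were measured, with 6 above 0 and a median of 0.021. Fars2 had -0.22, -0.32, 0.09 and -0.35, Kars -0.03, -0.43, -0.05 and -0.24, and Sars2 0.26, 0.05, 0.04 and 0.64.

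Assembly and ribosomal RNA modification genes were measured for 14 of 22, with 6 above 0 and a median of -0.007. Ybey, a ribonuclease of ribosome maturation, had -0.44, -0.54, 0.00 and -0.22 (mean -0.30 ± 0.24, SD, n = 4; limma adjusted p 0.548). Noa1, a GTPase of small-subunit assembly, had -0.04, -1.40, 0.10 and 0.15, at -0.998 on Cy5 arrays and 0.40 on Cy3 arrays. Ddx28, a helicase of large-subunit assembly, had 0.13, 0.22 and -0.05 in mice 1, 3 and 4. For mitochondrial transcription and RNA handling, 8 of 14 genes were measured, with 7 above 0 and a median of 0.11. Hsd17b10, a subunit of the enzyme that trims tRNA ends, had 0.22, 0.59, 0.23 and 0.16, a mean of 0.30 ± 0.20 (SD, n = 4). Slirp, which stabilises mitochondrial messages, had 0.29 ± 0.25 but -0.70 on Cy5 arrays and 1.29 on Cy3 arrays, and Tfam, which packages mitochondrial DNA, had 0.15 ± 0.17.

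Promoters were examined for what the genes share in sequence, as a description. RefSeq windows of GRCm38.p6, 250 bases before to 50 after the start, were matched by symbol for 57 of 64 members, giving 63 windows. Not matched were Mrpl13, Mrpl15, Mrpl38, Mrpl4, Mrpl54, Mrps34 and Mrps35. On either strand, the core of the NRF1 site (GCGCANGCG) stood in 20.6% of members' windows, beside 8.58% of windows of protein-coding genes and 6.25% of all windows. The ETS core (CCGGAAG) stood in 36.5%, beside 11.6% and 8.86%, and the YY1 core (AAGATGGCG) in 12.7%, beside 1.83% and 1.40%. At least 1 of the 3 stood in 58.7%, beside 19.6% and 14.8%. A window may hold several, and the last 3 letters of the ETS core are the first 3 of the YY1 core, so these can overlap. NRF1, ETS proteins such as GABP, and YY1 are known regulators of nuclear genes for mitochondrial proteins. The windows of Mrpl33 and Mrps21, next after Mrps6 between mice, are printed as examples of members with these motifs, in capitals. Mrpl33 lies at chr5:31613701-31614000 on the plus strand, with an ETS core that begins 3 bases before the start. Mrps21 lies at chr3:95871465-95871764 on the minus strand, with an NRF1 core and, after the start, an ETS core, both on the opposite strand to the gene.
Mrpl33: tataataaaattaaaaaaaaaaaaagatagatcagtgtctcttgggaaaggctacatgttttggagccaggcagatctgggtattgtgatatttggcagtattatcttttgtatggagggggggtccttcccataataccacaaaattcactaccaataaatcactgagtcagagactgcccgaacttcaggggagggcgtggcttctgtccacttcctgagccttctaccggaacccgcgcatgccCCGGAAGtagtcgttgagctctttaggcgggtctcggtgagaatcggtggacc
Mrps21: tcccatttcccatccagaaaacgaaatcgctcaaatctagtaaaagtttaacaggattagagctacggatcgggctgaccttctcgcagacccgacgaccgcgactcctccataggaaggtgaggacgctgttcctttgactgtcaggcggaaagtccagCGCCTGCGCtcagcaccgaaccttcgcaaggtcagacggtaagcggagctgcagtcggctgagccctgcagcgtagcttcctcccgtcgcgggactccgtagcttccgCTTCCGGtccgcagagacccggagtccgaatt
The window of Mrps6, printed above, held none of the 3. A match of letters is no evidence of binding, and no binding was measured here.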

How the data were processed

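Per the labels, total RNA was reverse transcribed, labelled indirectly with Cy3 or Cy5 and hybridised with the pool in the other dye. The authors deposited 1 log2 ratio per probe and array; the sources used here do not give their background correction and normalisation, and base, direction and centring were inferred from the values. No intensities were used, so signal over background is unknown.

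Values with an absolute size over 10 (510, of which 1 in the members) were set to missing, and the median was subtracted array by array. A mouse's value is the mean within each orientation, then the mean of both; a probe needed both in at least 3 mice. Symbols came from the platform annotation: 14030 probes had 1 symbol, 5 several and 6320 none. Of the probes with 1 symbol, 13994 were matched by gene identifier to RefSeq GRCm38.p6 and took its symbol, which changed none of the 79 member symbols. Probes of 1 symbol were averaged, giving 9846 genes and 6294 unnamed rows. Limma 3.58.1 (R 4.3.3; statmod 1.5.0 for the random block) tested the mouse values against 0, two-sided. It also ran the F-test between mice and the dye term on the 16 arrays, for rows measured in both orientations in all 4 mice, with Benjamini-Hochberg adjustment at 0.05. Scripts were tested on simulated data.

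The members and lists were chosen with earlier results of these data known. Members given values by rule were any past a threshold, the 10 smallest p, the 4 highest and 4 lowest means among those with 4 mice, the 6 smallest F-test p, all with several probes and the 3 largest dye terms; of other lists, the 3 smallest p. Others named were chosen after their values were seen. Alternatives covered centring, scaling, probes, filters, orientations, repeats, floor spots, direction, medians, priors, random block and each mouse left out.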

Additional observations from a re-analysis of the deposited data

Results flagged for a closer look

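Mrpl46, a large-subunit protein specific to mitochondria, had a log2 ratio of 0.34 in mouse 2, while the other 3 mice lay between -0.14 and -0.09. The gap was large against the range of the 4 mice by Dixon's criterion, which chance meets in about 1 in 20 groups; 63 members were examined. All 4 arrays of mouse 2 were above 0 for Mrpl46. The F-test between mice did not call it (limma adjusted p of 0.303).

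Mrps6 differed between the 4 mice, with a limma F-test adjusted p of 0.0191, the 4 arrays of mouse 2 lying above all others when both probes were averaged.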

How the results depend on the processing

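Under the 21 alternatives the members' median log2 ratio stayed above 0, between 0.0045 (values read as Cy5 over Cy3) and 0.067 (without mouse 1). Genes with a mean above 0 numbered 33 to 46 (50 of 79 when every probe stood on its own). The median moved by less than the SD of 0.056 between mice each time. That SD is wider than the main median of 0.049, so a fall to 0 would have met the same limit. Members called against the pool numbered 0, except 1, Mrpl53, on Cy3 arrays alone and 1, Mrpl53, read as Cy5 over Cy3. Rows of the whole array called were 3 on Cy5 arrays, 1 on Cy3 arrays, 12 read as Cy5 over Cy3 and 221 with the mouse as a random block, whose estimated correlation of 0.035 counts arrays almost as separate animals. Between mice, rows called were 16 with the replicate block, 48 with every probe on its own, 2 read as Cy5 over Cy3 and 4 to 14 without 1 mouse. Members called were 0 without centring, 0 read as Cy5 over Cy3 and 0 to 1 without 1 mouse. The adjusted p of Mrps6 was 0.0321 with the replicate block, 0.0544 without centring, 0.983 read as Cy5 over Cy3 and 0.046 to 0.587 without 1 mouse. The order of the mice was read as Cy5 over Cy3 after the data were seen: mouse 2 was then highest for 18 members in place of 29, and mouse 1 lowest for 13 in place of 25. The repeat numbers did not pair the arrays: deviations of arrays with the same number had a median correlation of -0.11, as had those with different numbers. Causes were not tested.

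Of 615 recomputed values of the 31 members named by rule, 59 changed sign; Mrpl53 read as Cy5 over Cy3 apart, none of these was called. Read as Cy5 over Cy3, Mrpl53 was -1.93, Mrpl13 -0.67, Mrps15 -0.29, Mrpl30 -0.26, Mrps10 -0.25, Mrps24 -0.20, Mrpl10 -0.12, Mrps12 -0.092, Mrps23 -0.048, Mrpl15 -0.045, Mrpl23 -0.037, Mrps18c -0.033, Mrpl48 -0.021, Mrps18b 0.014, Mrpl17 0.043, Mrpl21 0.079 and Mrpl4 0.15. On Cy5 arrays alone, Mrpl53 was -1.61, Mrpl13 -0.62, Mrps10 -0.24, Mrps24 -0.068, Mrpl30 -0.060 and Mrpl10 -0.058. On Cy3 arrays alone, Mrps21 was -0.13, Mrps17 -0.064, Mrpl33 -0.055, Mrpl49 -0.033, Mrps35 -0.0059, Mrpl11 0.11, Mrps25 0.15 and Mrpl55 0.99. On repeat 1, Mrpl53 was -0.058 and Mrps25 0.027. On repeat 2, Mrpl49 was -0.063, Mrpl13 -0.0054, Mrpl11 0.028 and Mrps18b 0.043. With medians of arrays, Mrpl53 was -0.11, Mrpl49 -0.035, Mrps18b 0.0024 and Mrpl11 0.036. Leaving out absolute values over 3, chosen after the data were seen, Mrpl13 was -0.024, Mrps18b 0.094 and Mrpl55 0.16. Without centring, Mrpl49 was -0.015. After scaling, Mrpl49 was -0.0025. With floor spots kept, Mrps18b was 0.43. On complete probes, Mrps25 was 0.0066. Without 1 mouse, Mrpl10 ranged from -0.0049 to 0.13, Mrpl11 from -0.10 to 0.074, Mrpl33 from -0.030 to 0.20, Mrpl49 from -0.048 to 0.040, Mrpl55 from -0.25 to 0.23, Mrps10 from -0.095 to 0.11, Mrps12 from -0.18 to 0.48 and Mrps25 from -0.046 to 0.029.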
